A study of Bos taurus with 6 samples.

Results

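The genes described here make, sense and break down prostaglandin E2 and prostaglandin F2α in bovine cumulus cells, the somatic cells that surround the oocyte. They were chosen by name, as 10 genes of prostaglandin synthesis, reception and breakdown: PLA2G4A, PTGS1, PTGS2, PTGES, PTGES2, PTGES3, PTGER2, PTGER4, PTGFR and HPGD. The array carried 23 probes for them among 43794 probes in all, and 15216 genes had a symbol. Cumulus cells of Holstein cows were compared on 2-colour arrays between 6 h of in vitro maturation and 0 h, before maturation. The 3 biological replicates were each hybridised a second time with the dyes exchanged, on 6 arrays in total. Complexes came from slaughterhouse ovaries, had 5 or more cumulus layers, and matured in groups of 10 at most at 38.5 °C. The atmosphere held 5% CO2 and 20% O2. The maturation medium was TCM-199 with 10% fetal calf serum and 1 μg/ml estradiol, pyruvate and gentamicin, and the labels name no gonadotropin in it. The labels do not say how many cows went into a replicate, so the p-values below measure only the spread between these 3 replicates.

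Prostaglandins are made in 3 steps. A phospholipase frees arachidonic acid from membranes, a cyclooxygenase (PTGS1 or PTGS2) turns it into prostaglandin H2, and a terminal synthase makes the final product. In the cumulus of mammals, PTGS2 is best known as a gene switched on by the ovulatory signal, and prostaglandin E2 acts through PTGER2 on the cumulus cells as they expand their matrix. HPGD, the 15-hydroxyprostaglandin dehydrogenase, starts the breakdown of the product.

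Before maturation and after 6 h, PTGES3 and PLA2G4A gave clear signals, PTGS1, PTGES and PTGES2 gave weak ones, and the inducible cyclooxygenase, the receptors and HPGD lay near the background. PTGES, the inducible prostaglandin E synthase, was 1.47-fold lower at 6 h than at 0 h, with a log2 ratio of -0.56 ± 0.22 (SD, n = 3). It was the only member that passed the test. PTGES2 was 1.28-fold lower, just outside the threshold. Both entered the test only through 0 h, the time point where they are high, a filter that favours a lower value at 6 h. At 6 h the signals of both lay near the background, so neither fold bounds a change of the transcript. PLA2G4A, PTGS1 and PTGES3 did not pass, and PTGS2, PTGER2, PTGER4, PTGFR and HPGD were too dim to be tested.

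A spot was above background where its raw intensity exceeded the mean + 2 SD of the array's 153 negative control spots in the same channel. To enter the test, a probe had to exceed that threshold on every array of at least 1 time point. By that rule 7 of the 23 probes (30.4%) and 5 of the 10 genes were tested, against 47.6% of all probes on the array. No member spot was marked as ignored and none was saturated (0 of each). Of the 7 tested probes, 5 were above background on all arrays at both times, and the probes of PTGES and PTGES2 missed it on 1 array at 6 h. Another 4 probes, for PTGS2 (2 probes), PTGER4 and HPGD, were above background on no array.

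**Figure D1:**
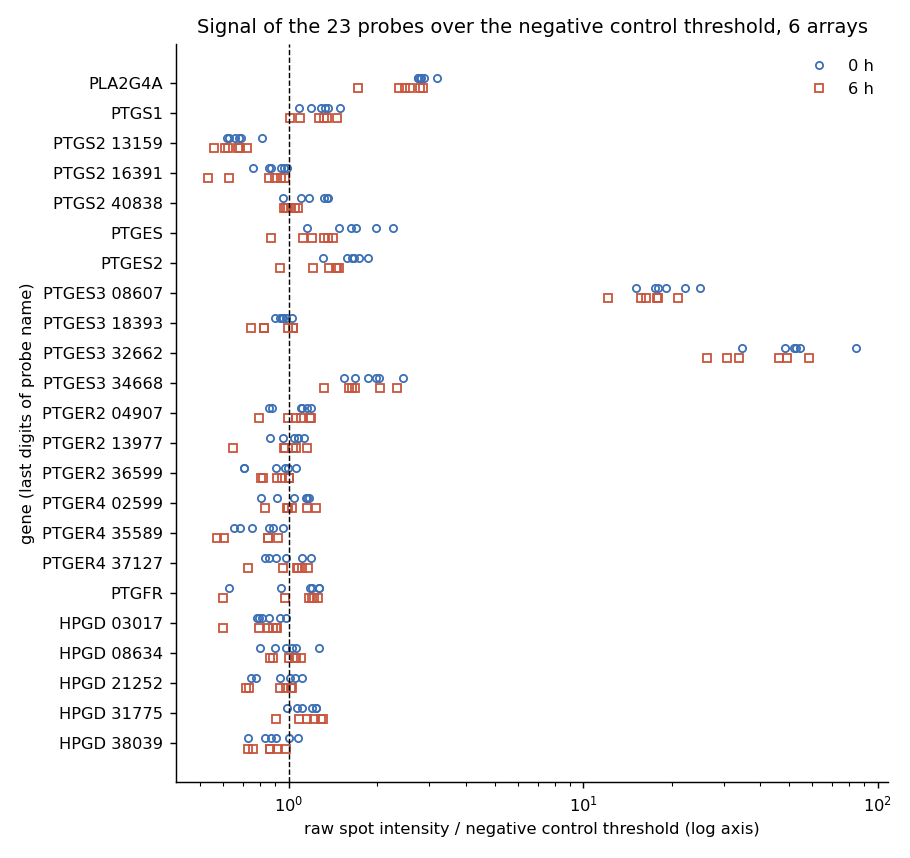
Raw spot intensity divided by the negative control threshold (log axis, no unit) for each of the 23 probes, with 6 arrays at 0 h (circles) and 6 h (squares); the dashed line marks an intensity equal to the threshold. The untested probes lie between 0.533 and 1.36 times the threshold on every array, and 2 PTGES3 probes lie at more than 10 times the threshold.

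Ratios below are log2 of 6 h over 0 h after background correction and loess, averaged over both arrays of a dye swap. Levels are normalized log2 intensities of a probe, which allow comparison between samples and not between probes. The test was limma's moderated test over 9217 genes, each gene represented by its brightest tested probe, with Benjamini-Hochberg adjustment, and called means an adjusted p under 0.05. Of the 5 tested members 1 was called, against 35.7% of all tested genes. That gene was lower at 6 h, as were 18.3% of all genes. No member was called higher (0), against 17.4% of all genes. In a separate fit over all 20831 tested probes, 2 of the 7 member probes were called lower, against 15.8% of all probes. All 5 tested members had a ratio below 0, the one nearest to 0 being PTGS1, and their median was -0.35 against -0.02 for all tested genes. With 5 genes, 2 of them admitted through 0 h alone, these shares and signs are descriptions and support nothing.

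The release of arachidonic acid by PLA2G4A, the calcium-dependent cytosolic phospholipase A2, was represented by 1 probe with a signal 1.72 to 3.18 times the threshold. Its level was 9.10, 8.75 and 8.60 at 0 h in replicates 1, 2 and 3, and 8.57, 8.62 and 8.61 at 6 h. The replicates were spread at 0 h and nearly identical at 6 h, and the 0 h value of replicate 3 lay among the 6 h values. The ratios were -0.44 on the first array and -0.62 on the dye-swapped array of replicate 1, 0.01 and -0.28 in replicate 2, and 0.01 on both arrays of replicate 3. The mean ratio of -0.22 ± 0.28 (SD, n = 3) did not pass the test (limma, adjusted p = 0.294), with a 95% interval from -0.57 to 0.14. Replicate 1 set most of that mean, which was -0.06 without it.

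Other genes of phospholipid and arachidonate release did change. Of the 19 such genes with a probe 11 were tested, of which 5 rose and 3 fell, with a median ratio of 0.40. Over all tested genes 17.4% were called higher and 18.3% lower, and the counts of this and the following lists are to be read against those shares. ANXA1, annexin A1, which is known to restrain cytosolic phospholipase A2, rose 6.48-fold, with log2 ratios of 1.76, 3.00 and 3.33 (limma, adjusted p = 0.00328). ACSL4, which couples arachidonic acid to coenzyme A and so returns it to membranes, rose 2.05-fold, and its relative ACSL3 rose 1.78-fold. PLA2G7, the platelet-activating factor acetylhydrolase, rose 2.28-fold. PLA2G6, a calcium-independent phospholipase A2, fell by 1.32 on the log2 scale, and PLAA, named as an activator of phospholipase A2, fell by 0.91. The other called genes, named after their values were seen, were PLA2G16, 1.59-fold higher, and PLA2G1B, with a ratio of -0.53. The call of ACSL3 did not hold without replicate 2 (adjusted p = 0.0689). Of its 3 probes 1, with a ratio of 0.31, did not pass.

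Of the cyclooxygenases, PTGS1, the constitutive form, was above background on all arrays, at 1.01 to 1.49 times the threshold. Its level was 7.38, 7.46 and 7.39 at 0 h and 7.58, 7.17 and 7.46 at 6 h in replicates 1 to 3. The 6 h values lay on both sides of the 0 h values. The ratio per replicate was 0.20, -0.28 and 0.08, which gave a mean of -0.0016 ± 0.25 (SD, n = 3; limma, adjusted p = 0.994). The 95% interval of the ratio ran from -0.34 to 0.34, so a change of that size in either direction lies within the error of these replicates. With a signal this close to the threshold, the interval does not bound a change of the PTGS1 transcript.

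PTGS2, the inducible cyclooxygenase, had 3 probes, and none was tested. Probes EMBV3_13159 and EMBV3_16391 stayed below the threshold on every array at both times, with highest values of 0.811 and 0.990 times the threshold. The brightest probe, EMBV3_40838, was above background on 5 of 6 arrays at 0 h and on 3 of 6 at 6 h. Its signal was 0.953 to 1.36 times the threshold at 0 h, with a median of 1.25, and 0.963 to 1.08 at 6 h, with a median of 1.01. PTGS2 was thus at the edge of detection at both times. The normalized level of that probe was 7.34, 7.20 and 7.30 at 0 h and 7.17, 6.90 and 6.88 at 6 h in replicates 1 to 3. The highest 6 h level, 7.17, lay close to the lowest 0 h level, 7.20. The ratio was below 0 on all 6 arrays, from -0.46 to -0.13, with a mean of -0.30 ± 0.12 (SD, n = 3). It was the only untested member probe with the same sign on all 6 arrays. Fitted without any filter on dim probes, over 15216 genes, the ratio did not pass the threshold (limma, adjusted p = 0.0823). With 3 of 6 arrays at 6 h not above background, that ratio does not bound a change of PTGS2 in either direction.

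The regulators known to act on the PTGS2 promoter were measured better than PTGS2 itself. Of 12 such genes with a probe, 10 were tested, of which 1 rose and 3 fell, with a median ratio of -0.16. That number of calls is close to the 35.7% over all tested genes. HIF1A, named after its values were seen, did not pass by its brightest probe (-0.24), whereas its other 2 probes were called lower (-0.72 and -0.75, adjusted p = 0.0150 and 0.0128 in the fit over probes). The immediate early genes FOS, EGR1 and JUN fell 7.85-fold, 6.92-fold and 6.71-fold, with ratios of -2.97, -2.79 and -2.75 (limma, adjusted p = 0.00632, 0.0253 and 0.00821). The FOS ratios were -4.08, -3.16 and -1.67 in replicates 1 to 3, so the size varied widely and the direction did not. The EGR1 ratios were -4.63, -2.84 and -0.91, and the JUN ratios -3.70, -3.18 and -1.36. Leaving out replicate 1 gave ratios of -2.42 for FOS, -1.87 for EGR1 and -2.27 for JUN, and leaving out replicate 3 gave -3.62, -3.73 and -3.44. The 2 FOS probes differed in size, with a ratio of -0.99 on the dimmer one. NFKB1, a subunit of the transcription factor NF-κB, rose 2.21-fold, with ratios of 1.03, 1.48 and 0.91 (adjusted p = 0.00434). Without replicate 2 the calls of EGR1 (adjusted p = 0.106) and JUN (adjusted p = 0.0518) were lost.

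The terminal synthases held the single called member. PTGES, the microsomal prostaglandin E synthase-1, which is usually induced together with PTGS2, had 1 probe, EMBV3_19012, at 1.15 to 2.26 times the threshold at 0 h and 0.871 to 1.42 at 6 h. Its level was 7.62, 7.91 and 8.09 at 0 h in replicates 1, 2 and 3, and 7.31, 7.19 and 7.44 at 6 h. Each replicate was lower at 6 h than at 0 h. The ratios were 0.00 on the first and -0.62 on the dye-swapped array of replicate 1, -0.82 and -0.62 in replicate 2, and -0.71 and -0.58 in replicate 3. Thus 5 arrays lay close together and the first array of replicate 1 showed no difference. PTGES fell by 0.56 on the log2 scale, with a standard error of 0.13 and a 95% interval from -0.88 to -0.24 (limma, adjusted p = 0.0230). At 6 h its median signal was 1.26 times the threshold, against 1.29 for PTGS1. As for PTGS1, the interval does not bound a change of the transcript. Without any filter on dim probes the same ratio was called (limma, adjusted p = 0.0268). A ratio lower than that of PTGES was found for 1340 of the 9217 genes. The call was lost without replicate 2 (-0.48, adjusted p = 0.141), without replicate 3 (-0.52, adjusted p = 0.0951) and on the arrays with 0 h RNA in Cy5 alone (-0.51, adjusted p = 0.0846). The tested genes nearest to PTGES in their ratios over the 6 arrays were LYPD1 and CDR2, at Euclidean distances of 0.240 and 0.248, with mean ratios of -0.50 and -0.55.

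In RNA from whole cumulus masses, fewer cells of a type and less RNA per cell cannot be told apart. Cell type markers moved between the time points, and their part in the PTGES ratio was not tested. Of 11 granulosa and cumulus markers on the array 10 were tested, of which 5 fell and 0 rose, among them the follicle-stimulating hormone receptor FSHR and the aromatase CYP19A1. The summed level of the 10 markers lay between 16.90 and 16.96 (log2) at 0 h and between 16.39 and 16.51 at 6 h, with changes of -0.44, -0.51 and -0.49 within replicates. NR5A1 entered that sum only through 0 h. Theca and stroma markers rose in 4 of 6 tested genes. Of these, DCN exceeded the threshold on 2 of 6 arrays at 0 h and all 6 at 6 h. It was admitted only through the time point where it is high, and it is part of the sum. The summed level of the tested theca and stroma markers was 13.88 to 14.62 at 0 h and 14.57 to 14.95 at 6 h. Within replicates 1, 2 and 3 that sum was higher at 6 h by 0.91, 0.33 and 0.49. CYP17A1 and INSL3, which mark theca cells, were not tested because they were dim. No endothelial marker was tested (0 of 5), and of 3 tested leukocyte markers CD68 rose. The leukocyte sum ranged from 8.88 to 10.47 at 0 h and from 9.34 to 11.05 at 6 h, and was higher at 6 h by 0.58, 0.46 and 0.61 within replicates 1, 2 and 3. CD3E entered that sum only through 6 h and PTPRC only through 0 h. Oocyte markers passed in 0 of 9 tested genes, but their summed level changed by 1.77, 0.78 and -1.17 in replicates 1, 2 and 3, within a range of 10.40 to 13.52 at 0 h and 11.17 to 12.35 at 6 h. Of these markers, ZP2, ZP3, ZP4, ZAR1, GDF9 and KPNA7 exceeded the threshold on every array only at 6 h, and H1-8 only at 0 h. They entered the test, and so the sum, through that time point alone.

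PTGES2, the microsomal prostaglandin E synthase-2, which is expressed constitutively in many tissues, had 1 probe at 1.30 to 1.86 times the threshold at 0 h and 0.937 to 1.48 at 6 h. Its level was 7.90, 7.92 and 7.77 at 0 h and 7.53, 7.50 and 7.49 at 6 h in replicates 1 to 3. Each replicate was lower at 6 h than at 0 h, and replicates lay closer together than for PTGES. The ratios were -0.17 on the first and -0.56 on the dye-swapped array of replicate 1, -0.36 and -0.49 in replicate 2, and -0.12 and -0.43 in replicate 3. In each replicate the array with 0 h RNA in Cy3 gave the lower ratio. The mean ratio was -0.36 ± 0.08 (SD, n = 3), with a 95% interval from -0.62 to -0.09. It did not pass in the fit over genes (limma, adjusted p = 0.0504) and passed in the fit over probes (limma, adjusted p = 0.0436). On the arrays with 0 h RNA in Cy3 alone the ratio was -0.49 (adjusted p = 0.0378), and on the others -0.22 (adjusted p = 0.252). With 6 h signals this close to the background threshold, the 95% interval does not bound a change of the PTGES2 transcript.

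**Figure D2:**
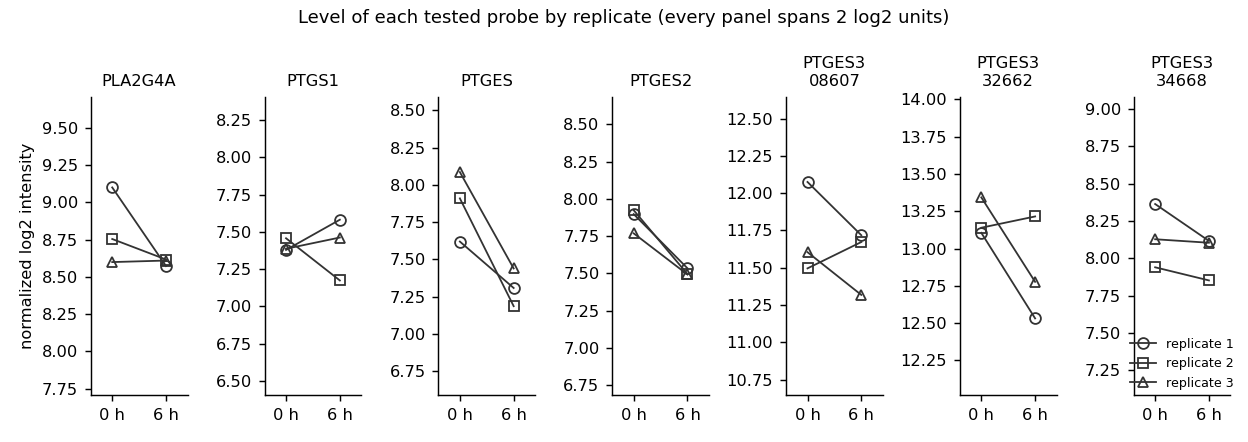
Normalized level (log2 intensity) of the 7 tested probes at 0 h and 6 h, with 1 line per biological replicate; every panel spans the same height, and numbers under a gene are the last digits of its probe. All replicates of PTGES and PTGES2 go down, whereas PLA2G4A, PTGS1 and 2 of the 3 tested PTGES3 probes have replicates that go both ways.

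PTGES3, a cytosolic protein known both as a prostaglandin E synthase and as p23, a co-chaperone of HSP90, was measured far above background. Its brightest probe, EMBV3_32662, lay between 26.3 and 84.5 times the threshold. That probe had levels of 13.11, 13.14 and 13.34 at 0 h and 12.53, 13.22 and 12.78 at 6 h. Replicates 1 and 3 were lower at 6 h and replicate 2 was not. The ratios were -0.52 and -0.63 on the arrays of replicate 1, 0.12 and 0.03 in replicate 2, and -0.72 and -0.42 in replicate 3. On this probe both arrays of each dye swap had the same sign. The mean of -0.35 ± 0.37 (SD, n = 3) did not pass the test (limma, adjusted p = 0.160), although it nearly equalled that of PTGES2. Probes EMBV3_08607 and EMBV3_34668 had mean ratios of -0.16 and -0.12, and neither passed in the fit over probes (adjusted p = 0.462 and 0.448). In replicate 2 the arrays differed in sign, with 0.67 and -0.31 for EMBV3_08607 and 0.34 and -0.52 for EMBV3_34668. For EMBV3_34668 they also differed in replicate 3 (-0.31 and 0.26). The last probe, EMBV3_18393, exceeded the threshold on 1 array at 0 h and 2 arrays at 6 h. All 4 PTGES3 probes had mean ratios below 0, with different sizes, the nearest to 0 being -0.04 for the dim EMBV3_18393.

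The HSP90 partners of PTGES3 were tested in 14 of 14 genes with a probe, of which 4 rose and 0 fell, with a median ratio of 0.16. Over all tested genes 17.4% were called higher, and 35.7% in either direction. DNAJB1, named after its values were seen, had a ratio of -0.73 that did not pass. However, 1 of its dimmer probes was called lower (-0.60, adjusted p = 0.0368 in the fit over probes). In 4 of 17 alternative settings 1 gene of the list was called lower, and that gene, which need not be DNAJB1, is not identified here. CHORDC1 and STIP1, co-chaperones of HSP90, rose 2.53-fold and 2.24-fold (limma, adjusted p = 0.00714 and 0.0186). The 4 CHORDC1 probes gave ratios of 0.60 to 1.46. AHSA1, an activator of the HSP90 ATPase, rose 1.55-fold, and the immunophilin FKBP5 rose 1.41-fold (adjusted p = 0.0436 and 0.0268). The chaperones themselves, named here as the direct partners, did not pass, with ratios of 0.21 for HSP90AA1 and -0.33 for HSP90AB1. Without replicate 2 the calls of STIP1, AHSA1 and FKBP5 were lost, with adjusted p of 0.0774 for STIP1. The call of AHSA1 held in only 7 of 17 alternative settings. Those of AHSA1 and FKBP5 were also lost without replicate 1, and that of FKBP5 without replicate 3.

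The synthases of other prostanoids gave 1 called gene of 6 tested, with a median ratio of -0.21. AKR1B1, an aldose reductase that acts as a prostaglandin F synthase in bovine endometrium, fell by 0.58 on the log2 scale, with ratios of -0.15, -0.83 and -0.75 in replicates 1 to 3 (limma, adjusted p = 0.0444). A second AKR1B1 probe gave -0.49 and did not pass (adjusted p = 0.120). The AKR1B1 call was lost in 7 of 17 alternative settings, among them those without replicate 2 (-0.45) and without replicate 3 (-0.49).

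The receptors of prostaglandin E2 and F2α could not be tested. PTGER2, the EP2 receptor, which raises cyclic AMP, had 3 probes, above background on 1 to 4 of 6 arrays at either time. The signal of its brightest probe was 0.854 to 1.19 times the threshold at 0 h, with a median of 1.10, and 0.789 to 1.19 at 6 h, with a median of 1.08. The groups overlapped almost fully, and that probe missed the threshold only on the arrays of replicate 1. The mean ratios of the 3 probes were 0.07, -0.09 and 0.19, and the highest came from replicate 1 of a probe above background on 1 array at 0 h and 2 at 6 h. PTGER4, the EP4 receptor, also coupled to cyclic AMP, had 1 probe below the threshold on all arrays. The other two had mean ratios of 0.08 and 0.09, with signals between 0.728 and 1.23 times the threshold. Their groups overlapped as well. PTGFR, the receptor of prostaglandin F2α, had 1 probe, above background on 4 of 6 arrays at each time. The probe missed the threshold only on the arrays of replicate 1, and lay at 1.17 to 1.27 times it in replicates 2 and 3. Over all arrays it lay between 0.625 and 1.27 times the threshold at 0 h and between 0.596 and 1.26 at 6 h. Its mean ratio was 0.02 ± 0.05 (SD, n = 3). Fitted without a filter, with the brightest probe of each gene, the 95% interval of the ratio ran from -0.14 to 0.28 for PTGER2, from -0.14 to 0.29 for PTGER4 and from -0.18 to 0.22 for PTGFR. None of these passed the threshold (limma, adjusted p = 0.667, 0.654 and 0.918). At signals this close to the negative controls a change in the receptor transcripts was not detectable.

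**Figure D3:**
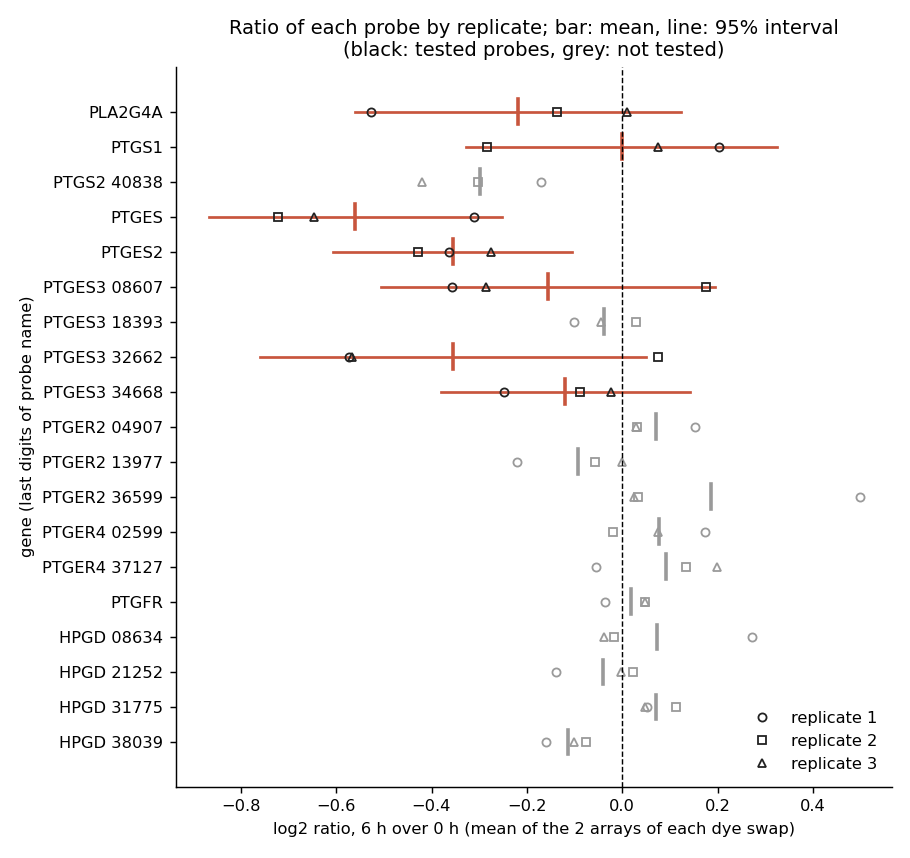
Log2 ratio of 6 h over 0 h for each probe that was above background on at least 1 array, by replicate (points), with the mean (bar) and, for the 7 tested probes in black, the 95% interval of the fit over probes (line); grey probes were not tested. The intervals of PTGES and PTGES2 lie below 0, and the receptor and HPGD probes lie around 0.

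The other receptors on the list gave 1 called gene of 3 tested. PTGFRN, a membrane protein known to lower the binding of prostaglandin F2α to its receptor and not itself a receptor, fell by 0.61 on the log2 scale, with ratios of -0.15, -0.98 and -0.70 (limma, adjusted p = 0.0493). Its other 2 tested probes gave -0.27 and -1.08, of which only the latter passed. The PTGFRN call was lost in 8 of 17 alternative settings, among them those without replicate 2 (-0.42) and without replicate 3 (-0.56). PTGER3 and PTGIR, the other tested receptors, had ratios of -0.03 and -0.04. Each exceeded the threshold on all 6 arrays at 0 h and on 5 at 6 h, so they were admitted only through 0 h. Downstream of EP2 and EP4, 10 of 22 genes of the Gs and cyclic AMP path were tested, of which 2 rose and 0 fell. PRKAR1A, a regulatory subunit of protein kinase A, rose 1.62-fold (adjusted p = 0.00935), and GRK5, a kinase that desensitises receptors, rose 1.37-fold (adjusted p = 0.0372). GRK5 exceeded the threshold on 4 of 6 arrays at 0 h and all 6 at 6 h, so it was admitted only through the time point where it is high. The call of PRKAR1A was lost without replicate 2, and that of GRK5 without any 1 of the 3 replicates.

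Breakdown began with a member that was not tested. HPGD, which oxidises prostaglandin E2 and F2α at carbon 15, had 5 probes. The brightest, EMBV3_31775, was above background on 5 of 6 arrays at each time, at 0.987 to 1.24 times the threshold at 0 h and 0.902 to 1.31 at 6 h. It missed the threshold only on arrays of replicate 1. Its ratio was 0.05, 0.11 and 0.05 in replicates 1 to 3, with a mean of 0.07 ± 0.04 (SD, n = 3). Without a filter it did not pass (limma, adjusted p = 0.650; 95% interval -0.13 to 0.27). Probe EMBV3_38039 exceeded the threshold on 2 arrays at 0 h and on none at 6 h, and no fold is given for it. The other probes of HPGD were above background on at most 3 arrays at each time.

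The other genes of the transport and breakdown list were better measured than HPGD. Of 8 genes with a probe 5 were tested, of which 3 fell and 0 rose, with a median ratio of -0.53. PTGR1, the 15-oxoprostaglandin reductase that also inactivates leukotriene B4, fell 2.98-fold, with ratios of -1.53, -1.91 and -1.29 in replicates 1 to 3 (limma, adjusted p = 0.00216). All 3 of its probes were called lower, with ratios of -1.59, -1.58 and -0.48. The last of these probes exceeded the threshold on all 6 arrays at 0 h and on 3 at 6 h. It was thus admitted only through the time point where it is high. PTGR2, a reductase of 15-keto-prostaglandin E2, fell by 0.53 and CBR4, a mitochondrial carbonyl reductase, by 0.65 on the log2 scale (adjusted p = 0.0192 and 0.0133). A second tested CBR4 probe gave -0.57 and did not pass. Without replicate 2 the calls of PTGR2 and CBR4 were lost, and without replicate 3 that of PTGR2.

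Arachidonic acid also feeds the lipoxygenase and epoxygenase branches. Of 16 such genes with a probe 8 were tested, of which 4 fell and 0 rose, with a median ratio of -0.47. LTA4H, the leukotriene A4 hydrolase, fell 2.03-fold (limma, adjusted p = 0.00418), and ALOX5AP, which presents arachidonic acid to 5-lipoxygenase, fell 1.48-fold (adjusted p = 0.0153). ALOX5AP exceeded the threshold on 5 of 6 arrays at 6 h and all 6 at 0 h, so it too was admitted only through the time point where it is high. The epoxide hydrolases EPHX1 and EPHX2 fell 1.90-fold and 1.60-fold (adjusted p = 0.0106 for both). A second tested EPHX2 probe gave -0.18 and did not pass. ALOX5 itself was not tested because it was dim. EPHX1, EPHX2 and ALOX5AP lost their calls without replicate 2.

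**Figure D4:**
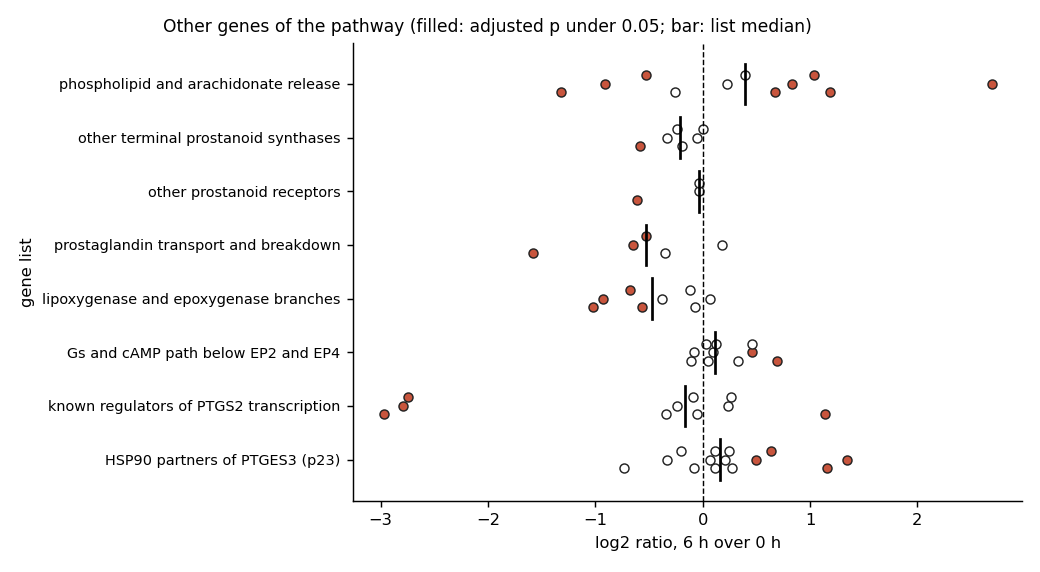
Log2 ratio of 6 h over 0 h of every tested gene in the 8 lists of pathway genes outside the 10 members (points; filled where the adjusted p is under 0.05), with the list median as a bar. The release list spans -1.32 to 2.70, and the called genes of the breakdown, lipoxygenase and other synthase lists all lie below 0.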

How the data were processed

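The authors deposited scanner files with linear raw spot intensities, local backgrounds and a score that marks ignored spots, per the file headers. They also deposited a matrix of log2 ratios, for which the sources used here name no normalization. Per the labels' protocols, RNA was amplified linearly and labelled with Cy3 or Cy5. The first array of each replicate held 0 h RNA in Cy5. Spot means minus the local background median were corrected with normexp (offset 50), then normalized by loess (ratios) and Aquantile (levels). The median was chosen after the files were examined, because it came closest to an earlier processing of these data, and the mean is an alternative. Dye swaps were averaged, so n = 3, and each array pairs both time points. Tests used limma 3.58.1 in R 4.3.3, two-sided, checked on simulated data. Probe names came from the platform annotation, updated through the RefSeq table: 21790 probes had 1 symbol. All 23 member probes, list genes with the smallest p (up to 6 called per list), direct partners and the 2 genes nearest to a called member were named by rule. The members, lists and rule were chosen with earlier results of these data known. The share of probes above background ranged over arrays from 51.3% to 84.3% at 0 h and from 41.3% to 79.9% at 6 h. The number of biological replicates (n = 3) limits the precision. Alternatives covered background correction, normalization, the dim-probe filter, the probe rule, dye, replicates and the authors' matrix, which correlated at r = 0.990 to 0.995 with these ratios across probes. No coordinates or sequences were used.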

Additional observations from a re-analysis of the deposited data

How the results depend on the processing

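Across 17 alternatives, of which the local background mean was added after the data were seen, no member was called higher (0), and the number called, all lower, lay between 0 and 2. It was 0 when arrays with 0 h RNA in Cy5 were used alone. It was 2, with PTGES2 added, without a filter on dim probes, with a filter of 4 of 6 arrays, with the mean of a gene's probes, at probe level, when arrays with 0 h RNA in Cy3 were used alone, and with all 6 arrays and the replicate as a random block. With 1 replicate left out at a time the number of members called ranged from 0 to 1. PTGES kept its direction in all 17, from -0.78 to -0.42 (adjusted p = 0.0074 to 0.141). PTGES2 ranged from -0.49 to -0.22 and passed in 6 of 17. PTGS1, near 0 throughout, changed sign without background correction (0.000758), with normexp fitted on all spots (0.0395), on the arrays with 0 h RNA in Cy3 (0.0737), with the local background mean (0.00685) and without replicate 2, where leaving out 1 replicate gave -0.10 to 0.14. The number of called features was 3287 genes, 6956 when probes were counted, and 1352 to 3354 genes with 1 replicate left out. Of the ratios of named list genes, 50 of 424 recomputed values lost their call and none changed sign. The causes of these differences were not tested. Signal over background is the limit for PTGS2, the receptors and HPGD, and no fold is given for probes below background at both times.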
